A study of Homo sapiens with 6 samples.

Results

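Iron uptake, storage and export genes were examined in LM3 cells, an established human HCC cell line, with and without knockdown of ZNF706, a C2H2-type zinc finger protein. The group holds 10 of the 33007 genes in the deposited table and was taken by symbol, namely TFRC, SLC11A2, SLC39A14, SLC39A8 and STEAP3 for uptake, FTH1, FTL and NCOA4 for storage, and CP and SLC40A1 for export. Each symbol had 1 row. All 10 carry the KEGG term ferroptosis in the table, which 38 of its genes carry.

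RNA-seq compared stable ZNF706 knockdown with the vector control, with 3 samples in each group. Per the labels, every sample came from LM3 cells, with liver as tissue, HCC as cell type and WT as genotype, and the groups differ in the treatment (control or ZNF706 knockdown). Per the study's methods, knockdown lines were made with pLKO.1 short hairpin lentivirus and puromycin selection, and which hairpin was sequenced, and whether the lines are pools or clones, is not given in the sources used here. Nothing says that the samples of a group were separate cultures, so the p-values measure the spread between these samples, which may be technical. Total counts reached 62684076, 64713764 and 63054445 for the control replicates and 68548419, 65861994 and 69057423 for the knockdown replicates, so each knockdown sample was sequenced more deeply than each control sample. ZNF706 itself fell by 0.73 on the log2 scale (SE 0.050, adjusted p = 3.7e-05, edgeR's quasi-likelihood test), from 51.9, 55.1 and 54.7 to 33.5, 30.8 and 32.8 CPM (counts per 1e6 counts of the library after TMM scaling).

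Most cells take up iron bound to transferrin through the transferrin receptor. In the endosome a STEAP reductase converts ferric to ferrous iron, which SLC11A2 (DMT1) or a ZIP transporter carries into the cytosol, and iron that is not used is stored in ferritin or leaves the cell through ferroportin. Hepatocytes are a main site of iron storage in the body, and free ferrous iron feeds the lipid peroxidation of ferroptosis. Iron-regulatory proteins bind hairpins called iron-responsive elements when iron is scarce, which blocks translation of an mRNA with the hairpin in its 5′ UTR and protects an mRNA with hairpins in its 3′ UTR from decay.

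The hairpins are shown because they set apart the members in which such a hairpin sequence was found. A search of GENCODE release 29 protein-coding transcripts (GRCh38) for C, 5 bases, the loop CAGTGN and 5 bases that pair with the 5 before it, with G-U pairs allowed, found a match in 291 of 19702 genes (1.48%). Only the transcript strand was searched. Among the 10 genes it matched FTH1, FTL and SLC40A1 once each in the 5′ UTR and TFRC 4 times in the 3′ UTR. Protein-coding transcripts with a match were 7 of 8 for FTH1, 1 of 1 for FTL, 1 of 5 for SLC40A1 and 3 of 4 for TFRC. The sites are printed 5′ to 3′ as DNA with the loop in capitals.
FTH1, chr11:61967574-61967603, minus strand: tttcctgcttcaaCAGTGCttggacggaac
FTL, chr19:48965334-48965363, plus strand: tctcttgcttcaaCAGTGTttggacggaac
SLC40A1, chr2:189580661-189580690, minus strand: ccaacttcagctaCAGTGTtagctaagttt
TFRC, chr3:196050979-196051008, minus strand: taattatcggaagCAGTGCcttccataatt
TFRC, chr3:196050575-196050604, minus strand: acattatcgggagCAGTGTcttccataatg
TFRC, chr3:196050510-196050539, minus strand: tctgtatcggagaCAGTGAtctccatatgt
TFRC, chr3:196050463-196050492, minus strand: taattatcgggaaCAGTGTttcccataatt
A match is a description of the letters and not evidence of binding. The lack of a match in the other members says only that these letters were not found there. SLC11A2 had no match in its 18 transcripts, yet it is among the mRNAs listed below as having a known iron-responsive element.

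In knockdown cells SLC39A14 and SLC39A8, which import zinc, manganese and non-transferrin-bound iron, fell, and STEAP3, the endosomal ferrireductase, rose. The mRNAs of the transferrin receptor, both ferritin chains, NCOA4, CP and SLC11A2 did not pass the test. Of the 10 genes, 9 passed the filter on low counts and 3 of these were called at an adjusted p below 0.05 (33.3%), 1 higher and 2 lower, beside 22.8% of all 18390 tested genes (10.4% higher and 12.4% lower). By the study's criteria (p below 0.05 and a log2 fold change of 0.3 or more in absolute size, with p taken as unadjusted) only SLC39A14 was called, which was lower, beside 15.5% of all tested genes (9.61% higher and 5.88% lower). The gene that met these criteria changed with the setting: it was STEAP3 with library size scaling, with limma and without knockdown replicate 2, and CP with the GC offset. Without control replicate 1, CP, SLC39A14 and STEAP3 met them, and without control replicate 2, SLC39A14 and STEAP3. With an offset for GC content the split of the called genes was 3 higher and 1 lower in place of 1 and 2, since CP and TFRC were then called higher and SLC39A8 was not called.

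In CPM the 3 knockdown samples lay outside the range of the 3 control samples for 6 of the 9 tested genes, 2 higher and 4 lower, beside 39.4% of all tested genes (19.7% higher and 19.7% lower). This tally depended on the scale. In FPKM the groups of FTH1 and NCOA4, lower in CPM, overlapped. Those of SLC11A2 were then separate, with knockdown higher (18.7 to 18.88 against 18.01 to 18.66 in control). The log2 fold change was negative for 7 of the 9 and positive for 2, with a median of -0.06, beside 0.01 for all tested genes. These values are relative to TMM scaling: with library size alone the median of the 9 was -0.01, with 4 positive and 5 negative, and that of all genes 0.06. With the GC offset the median of the 9 was 0.02, with 5 positive and 4 negative. In bulk samples fewer expressing cells and less RNA per cell cannot be told apart.

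**Figure D1:**
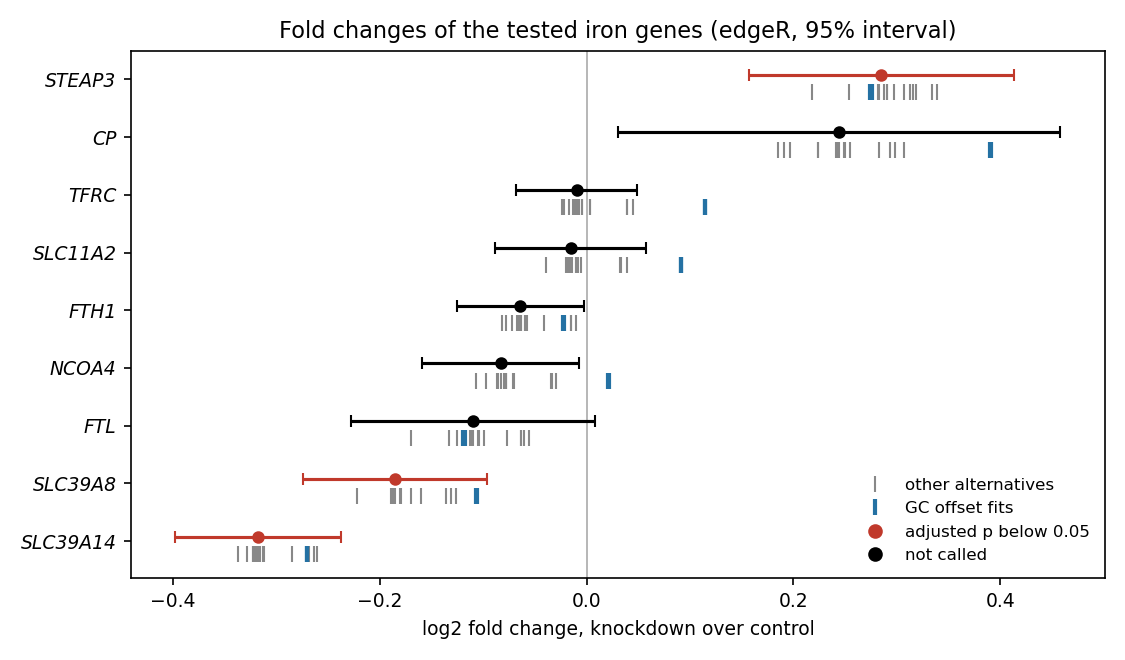
Log2 fold change of the 9 tested genes, knockdown over control, on the horizontal axis with 95% confidence intervals from edgeR, in red where the adjusted p was below 0.05 and in black otherwise, and below each gene a tick for every alternative setting (blue for the GC offset fits, grey for the others). SLC39A14 and SLC39A8 lie below 0 and STEAP3 above it under every setting, and the ticks of TFRC, SLC11A2 and NCOA4 lie on both sides of 0.

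SLC39A14 (ZIP14, ENSG00000104635, chr8:22367249-22434129) had the largest change of the group in absolute size in the main fit. STEAP3 had it with library size scaling (0.34), with limma (0.33 and 0.32) and without knockdown replicate 2 (0.31), and CP (0.39) with the GC offset. The level of SLC39A14 was 252, 253 and 251 CPM in the control samples and 208, 194 and 205 CPM in the knockdown samples. Every knockdown sample was below all control samples. The CV of the control samples, 0.424%, was below the 0.821% that counting error alone gives, so it does not measure how precisely replicates repeat. The log2 fold change was -0.32 (SE 0.036, 95% CI -0.40 to -0.24, adjusted p = 0.000345, edgeR's quasi-likelihood test), a loss of 19.8%.

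SLC39A8 (ZIP8, ENSG00000138821, chr4:102251041-102431258) is the closest relative of SLC39A14 in the group. It was at 96.7, 96.6 and 97.0 CPM in the control samples and at 89.6, 82.4 and 83.5 CPM in the knockdown samples, with no overlap. The CV of its control samples, 0.228%, was also below what counting error alone gives (1.296%). SLC39A8 fell by 0.19 on the log2 scale (SE 0.040, adjusted p = 0.00886, edgeR's quasi-likelihood test). The call was lost with the GC offset (-0.11, adjusted p = 0.0906 in edgeR) and without knockdown replicate 2 (-0.16, adjusted p = 0.0519 in edgeR). The lncRNA AC098487 overlaps SLC39A8 on the same strand and had counts of 18, 13 and 21 in control and 55, 76 and 35 in knockdown, against at least 5528 for SLC39A8 in every sample.

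STEAP3 (ENSG00000115107, chr2:119223831-119265652) was the only called gene that rose. It was at 76.3, 75.5 and 65.9 CPM in the control samples and at 92.3, 86.0 and 87.0 CPM in the knockdown samples. Control replicate 3 was the lowest sample, and the groups did not overlap. The log2 fold change was 0.29 (SE 0.057, 95% CI 0.16 to 0.41, adjusted p = 0.00622, edgeR's quasi-likelihood test). The antisense gene STEAP3-AS1 had at most 67 counts in any sample, against at least 4047 for STEAP3. STEAP3 and SLC39A14 were called in the main fit and in all 16 alternatives run for each.

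TFRC (transferrin receptor, ENSG00000072274, chr3:196027183-196082096) was at 1837, 1848 and 1903 CPM in the control samples and at 1883, 1849 and 1819 CPM in the knockdown samples. The groups overlapped, and the log2 fold change was -0.01 with a 95% CI of -0.07 to 0.05 (adjusted p = 0.842, edgeR's quasi-likelihood test). Its sign turned with the scaling, to 0.04 with library size alone (adjusted p = 0.254) and to 0.11 with the GC offset (adjusted p = 0.0106), where edgeR called it higher. SLC11A2 (ENSG00000110911, chr12:50979401-51028566), the proton-coupled ferrous iron transporter, lay between 205 and 214 CPM in the control samples and between 207 and 210 CPM in the knockdown samples. Its log2 fold change was -0.02 (95% CI -0.09 to 0.06, adjusted p = 0.791, edgeR's quasi-likelihood test) and was positive, at 0.04, with library size scaling.

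**Figure D2:**
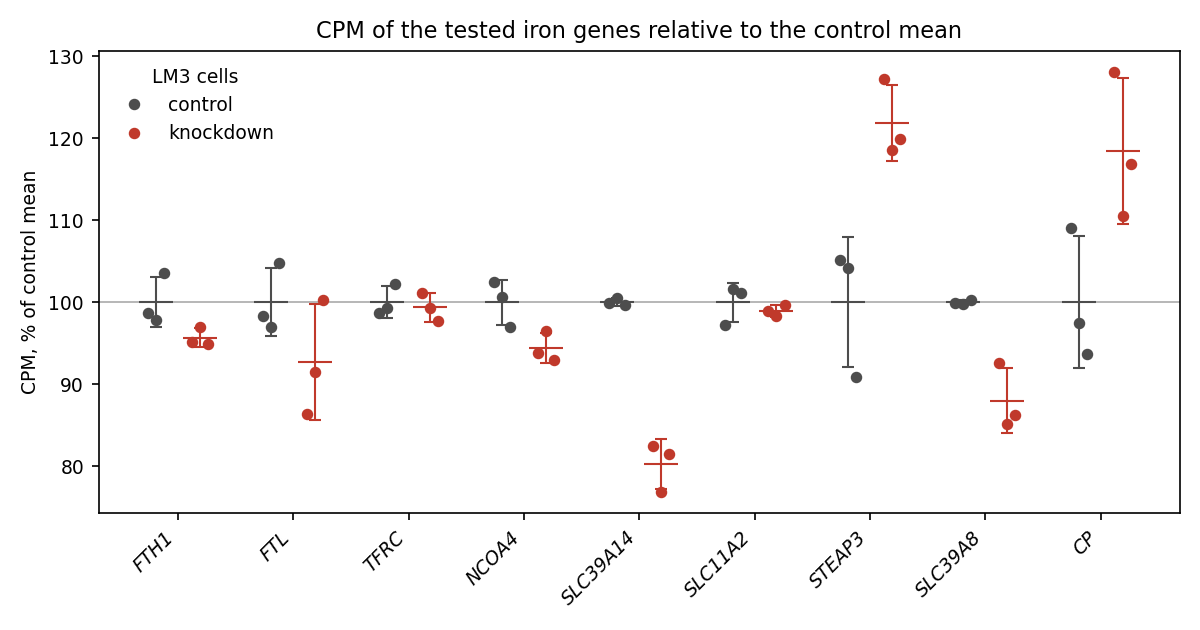
CPM of the 9 tested genes in the 3 control (grey) and 3 knockdown (red) samples as a percent of the gene's control mean, with the group mean and SD (bars), on an axis that does not start at 0. SLC39A14 lies between 76.8% and 82.5% in the knockdown samples and STEAP3 between 118.5% and 127.2%, and TFRC and SLC11A2 show groups that overlap.

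Among the storage genes none passed the test. FTH1 (ferritin heavy chain, ENSG00000167996, chr11:61959718-61967634), which carries the ferroxidase site, was at 2579, 2558 and 2706 CPM in the control samples and at 2487, 2535 and 2480 CPM in the knockdown samples. On this scale the knockdown samples were all lower, but by little, and the log2 fold change was -0.06 (95% CI -0.13 to -0.003, adjusted p = 0.128, edgeR's quasi-likelihood test). With library size scaling it was -0.01, and in FPKM the groups overlapped, at 1120, 1101 and 1154 in control and 1107, 1131 and 1101 in knockdown. BEST1 overlaps FTH1 on the opposite strand and had counts of 183, 131 and 3594 in control and 276, 307 and 3732 in knockdown. The third replicate of both groups was high for BEST1, against at least 159636 counts for FTH1 in every sample, and the sum of both genes gave the same fold change of -0.06. Without knowledge of strand in the counting, reads of overlapping genes cannot be told apart.

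FTL (ferritin light chain, ENSG00000087086, chr19:48965309-48966879), which aids mineralization of the iron core, was at 838, 826 and 893 CPM in the control samples and at 736, 780 and 855 CPM in the knockdown samples. Knockdown replicate 3 lay inside the control range. The log2 fold change was -0.11 (SE 0.053, adjusted p = 0.174, edgeR's quasi-likelihood test), and it ranged from -0.17 without that sample, where it was called (adjusted p = 0.0257 in edgeR), to -0.06 without knockdown replicate 1 (adjusted p = 0.468 in edgeR) and with library size scaling (adjusted p = 0.471 in edgeR). Ferritin pseudogene rows held few counts beside their parent genes. The 16 FTH1 pseudogene rows summed to between 0.891% and 1.02% of the FTH1 counts of a sample. The 6 FTL pseudogene rows summed to between 0.150% and 0.206% of the FTL counts. The counting program is not given, so these counts do not show how reads shared with the parent gene were assigned.

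NCOA4 (ENSG00000266412, chr10:46005088-46030714), the receptor that delivers ferritin to the lysosome, was at 306, 301 and 290 CPM in the control samples and at 281, 289 and 278 CPM in the knockdown samples. On this scale the groups were separate by a small margin, and in FPKM they overlapped, at 65.32, 63.67 and 60.82 in control and 61.38, 63.25 and 60.66 in knockdown. The log2 fold change was -0.08 (SE 0.034, adjusted p = 0.110, edgeR's quasi-likelihood test). It was 0.02 with the GC offset.

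Of the export genes, CP (ceruloplasmin, ENSG00000047457, chr3:149162410-149221827), the ferroxidase of plasma and cell surfaces, was at 14.4, 12.9 and 12.4 CPM in the control samples and at 16.9, 14.6 and 15.5 CPM in the knockdown samples. The groups did not overlap, and the log2 fold change was 0.24 (SE 0.096, adjusted p = 0.0978, edgeR's quasi-likelihood test). It passed with the GC offset (0.39, adjusted p = 0.0152 in edgeR). HPS3 overlaps CP on the opposite strand, had more counts than CP in every sample (2815 to 3186 in control and 3849 to 3955 in knockdown) and rose itself by 0.22 (adjusted p = 0.0106, edgeR's quasi-likelihood test), so the CP value is uncertain.

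SLC40A1 (ferroportin, ENSG00000138449, chr2:189560590-189583758), the only known cellular iron exporter, was at the edge of detection. Its counts were 8, 8 and 9 in control and 8, 8 and 0 in knockdown, where a count of 0 allows up to 3 counts. It did not pass the filter, and a difference was not detectable at this depth.

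Levels between genes were compared in FPKM, which is per length. FTH1 (1125 ± 27.0 FPKM in control, mean ± SD, n = 3) and FTL (844 ± 29.6) were the most abundant of the group and ranked 19 and 22 among all genes in the table by mean FPKM, and TFRC (206 ± 2.24) ranked 127. NCOA4 (63.3 ± 2.28), SLC39A14 (31.3 ± 0.337), SLC11A2 (18.4 ± 0.328), STEAP3 (13.7 ± 1.19) and SLC39A8 (12.9 ± 0.0917) followed. CP (1.60 ± 0.144) and SLC40A1 (0.0233 ± 0.00577) were lowest. Neighbours in this order were separate in all samples of both groups, except that STEAP3 and SLC39A8 overlapped in control. In the knockdown samples they were separate, with STEAP3 at 17.3 ± 0.667 and SLC39A8 at 11.7 ± 0.530 FPKM.

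**Figure D3:**
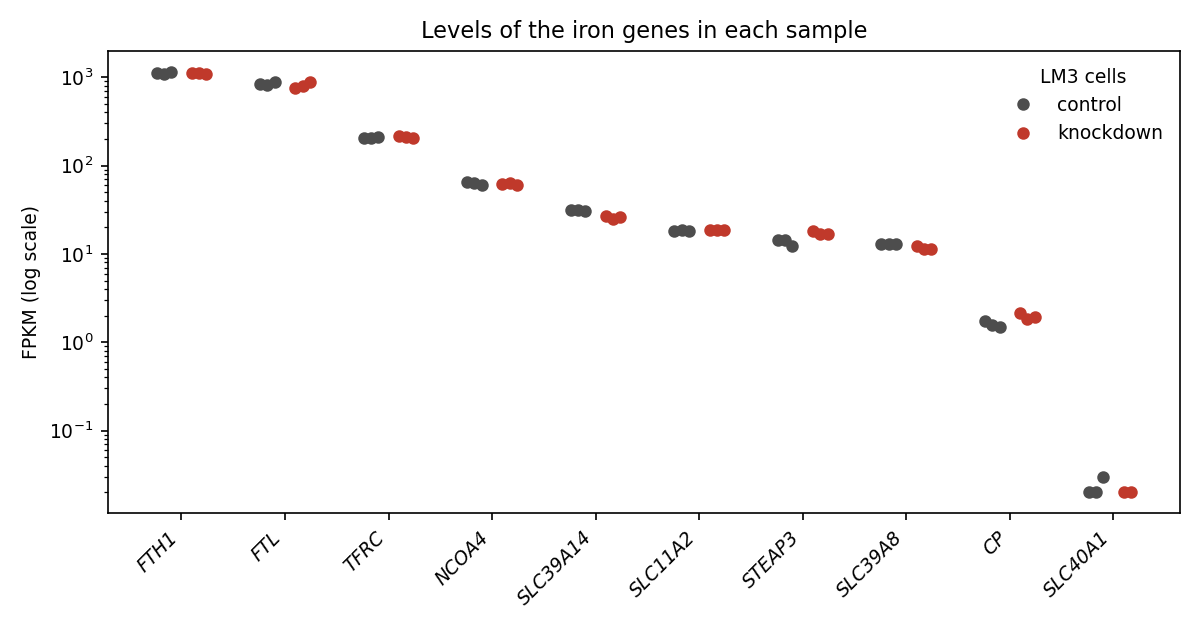
FPKM of the 10 genes on a log10 axis, ordered by level, for the 3 control and 3 knockdown samples. FTH1 and FTL lie highest, near 1125 and 844 FPKM in control, and CP lies near 1.60, and knockdown replicate 3 of SLC40A1 is not drawn because its value is 0.

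A ratio between members within a sample does not change with a single scaling factor for the library, but can change with the GC offset, which differs between genes. The SLC39A14 to SLC39A8 ratio of FPKM was 2.43, 2.45 and 2.42 in control and 2.17, 2.19 and 2.30 in knockdown samples. All knockdown ratios were lower, and the exact two-sided permutation test gave p = 0.1, the smallest that 3 against 3 samples allow, which cannot pass 0.05 (0.15 after Benjamini-Hochberg adjustment over the 3 ratios computed).

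The TFRC to FTH1 ratio, which sets a 3′ hairpin mRNA against a 5′ hairpin mRNA, was 0.183, 0.186 and 0.181 in control and 0.195, 0.188 and 0.189 in knockdown samples. The groups did not overlap (exact permutation p = 0.1, adjusted 0.15), with a shift of 0.05 on the log2 scale. With the GC offset, the fitted log2 fold changes stood further apart, at 0.11 for TFRC and -0.02 for FTH1. The FTH1 to FTL ratio was 1.34, 1.35 and 1.32 in control and 1.47, 1.41 and 1.26 in knockdown samples. Its knockdown samples lay on both sides of the control samples (exact permutation p = 0.5, adjusted 0.5).

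**Figure D4:**
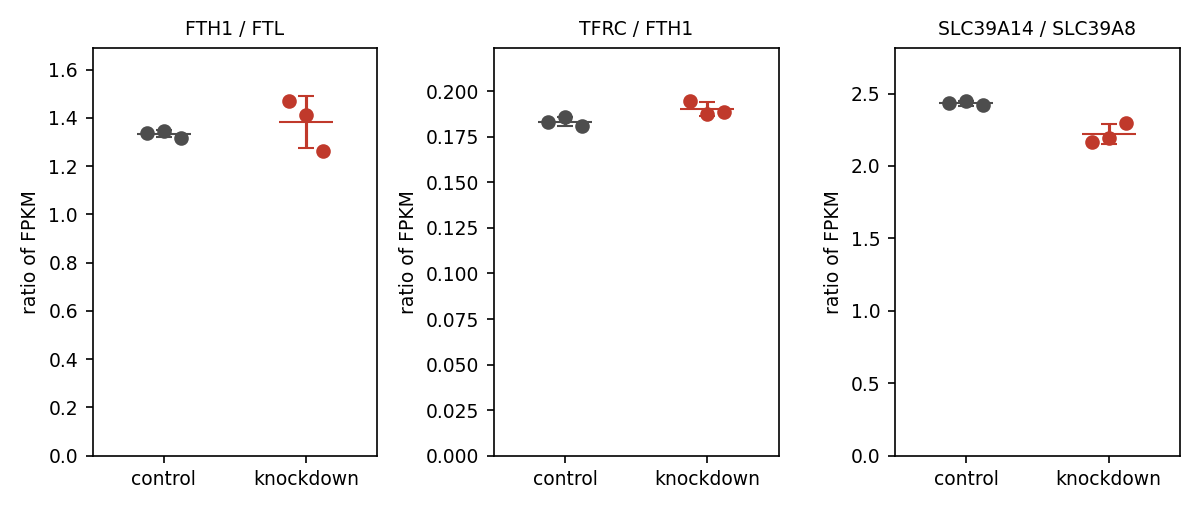
FPKM ratio of FTH1 to FTL, TFRC to FTH1 and SLC39A14 to SLC39A8 in each sample (points), with mean and SD, on axes from 0. The SLC39A14 to SLC39A8 ratio falls from near 2.43 to between 2.17 and 2.30, and the FTH1 to FTL ratios of the knockdown samples lie around the control values.

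The genes whose log2 CPM ran most closely with SLC39A14 over the 6 samples were SCML2 (Pearson's r = 0.999), SDCBP (0.998) and MAML1 (0.998), among 9470 genes with a mean of at least 10 CPM. Of these, 1524 had an r above 0.9. The values are a description, since the 6 points fall into 2 groups.

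Other genes of iron and metal handling were read from 8 lists by role, which overlap the 10 genes in some places. The list of ZIP and ZnT metal transporters is not confined to iron carriers, so the tally over the lists is not one of iron genes alone. Over the 118 tested genes outside the group, 8 were called higher and 24 lower (27.1%), close to the 22.8% of all tested genes, and the median of their log2 fold changes was -0.03. The split depended on the scaling: it was 19 higher and 15 lower with library size alone and 17 and 14 with the GC offset, and all tested genes went from 1906 higher and 2286 lower to 2742 and 1518 and to 2634 and 1396.

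The 18 tested genes of iron sensing and hepcidin control held 2 called higher and 5 lower (38.9% called), beside 22.8% of all tested genes (10.4% higher and 12.4% lower). The split was 2 and 4 with library size scaling, 3 and 3 with the GC offset, and 4 and 1 with the replicate block and GC offset together. It was 1 and 3 without control replicate 2 or knockdown replicate 2. HFE, the haemochromatosis protein, rose by 0.53 (adjusted p = 0.00509, edgeR's quasi-likelihood test) and BMP6 by 0.24. The ligand gene BMP2, the receptor genes ACVR1 and BMPR1A and the signal transducer genes SMAD5 and SMAD4 had log2 fold changes of -0.77, -0.45, -0.15, -0.28 and -0.26 and were called lower. SMAD1 (0.15), BMPR2 (-0.03) and ACVR2A (-0.05) of the same list were not called. The calls of SMAD4 and BMPR1A were lost with the GC offset, and those of BMP6, ACVR1 and BMPR1A were each lost when any 1 of 4 samples was left out. The iron-regulatory protein genes ACO1 (-0.09, adjusted p = 0.149) and IREB2 (-0.01, adjusted p = 0.867) and the iron-sensing ubiquitin ligase gene FBXL5 (-0.22, adjusted p = 0.0521) did not pass edgeR's quasi-likelihood test. IREB2 turned to 0.14 with the GC offset and was called higher there (adjusted p = 0.0141 in edgeR), and FBXL5 was called lower in 4 of 16 alternatives. TFR2 was 0.11 higher on the log2 scale (adjusted p = 0.442 in edgeR), and HAMP, which encodes hepcidin, had 4, 0 and 4 counts in control and 3, 0 and 0 in knockdown samples.

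Among ZIP and ZnT metal transporters, 7 of 18 tested were called, all lower (38.9%), beside 22.8% of all tested genes called and 12.4% lower. The count was 4 lower with library size scaling, 2 higher and 3 lower with the GC offset, and 3 lower without knockdown replicate 2. Beside SLC39A14 and SLC39A8 they included SLC30A7 (-0.39) and SLC30A9 (-0.25), of which SLC30A7 loads zinc into the secretory pathway. Of ferritin turnover and receptor recycling genes, 4 of 14 were called, all lower (2 higher and 2 lower with library size scaling, 1 lower with the GC offset, 1 higher and 2 lower with limma, 2 lower with no filter, 1 lower without control replicate 3 or knockdown replicate 2, and 2 lower without knockdown replicate 1). They were PICALM (-0.28), a clathrin adaptor, EXOC6 (-0.24), TBC1D15 (-0.22) and SNX3 (-0.15). Of other carriers, 3 of 13 were called lower: SCARA5 (-0.44), a ferritin receptor, SLC41A1 (-0.35) and STEAP4 (-0.10), which was 0.04 with the GC offset. The count fell to 2 with the GC offset and to 1 with library size scaling, with no filter, with limma, and without control replicate 1, control replicate 2 or knockdown replicate 2.

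Beside 22.8% of all tested genes, 33.3% of haem uptake, export and breakdown genes and 15.4% of haem synthesis genes were called. The share was 17.2% for iron-sulfur cluster assembly genes and 25.0% for mRNAs with a known iron-responsive element. Of haem uptake, export and breakdown genes, 1 of 12 was called higher and 3 lower (3 and 3 with library size scaling and with the GC offset). FLVCR2 rose by 0.55, and BACH1, the haem-binding repressor, LRP1, the receptor for haem bound to haemopexin, and SLC46A1 had log2 fold changes of -0.39, -0.39 and -0.26. HMOX1, which breaks down haem, differed by -0.05 on the log2 scale (adjusted p = 0.836, edgeR's quasi-likelihood test), with a positive sign, at 0.004, under library size scaling. Of 13 haem synthesis genes, TMEM14C rose by 0.19 and ABCB10, a mitochondrial transporter, fell by 0.32 (3 higher and 1 lower with library size scaling, 2 and 1 with the GC offset). No gene of that list was called higher without a filter, or without control replicate 1, knockdown replicate 2 or knockdown replicate 3. Of 29 iron-sulfur cluster assembly genes, 4 were higher, among them BOLA3 (0.48), NFU1 (0.35) and MMS19 (0.24), and ISCA1 was lower (-0.26). This split was 9 higher and 1 lower with library size scaling, 7 and 1 with the GC offset, and 2 and 1 without control replicate 1, control replicate 3, knockdown replicate 2 or knockdown replicate 3. Of 8 tested mRNAs with a known iron-responsive element, EPAS1 (-0.19) and CDC42BPA (-0.16) were called lower and none higher (1 lower with library size scaling, with limma and without control replicate 3, 1 higher and 1 lower with the GC offset). The hairpin search above found no match in EPAS1 or CDC42BPA. TFRC, FTH1, FTL and SLC11A2 of the group are among the 8.

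**Figure D5:**
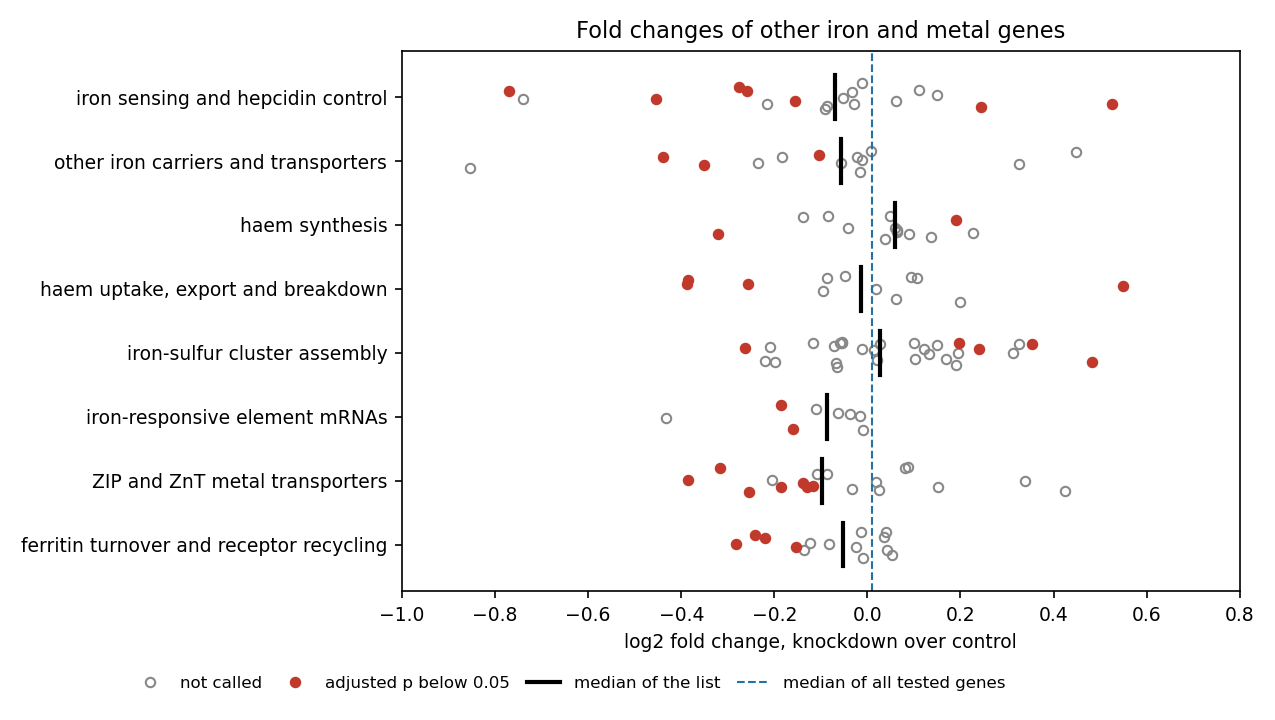
Log2 fold change, knockdown over control, of the tested genes of the 8 lists (points, filled where the adjusted p from edgeR was below 0.05), with the median of each list as a bar and that of all tested genes as a dashed line. Called genes of the metal transporter and ferritin turnover lists lie below 0 under TMM scaling, and 4 of the 5 called iron-sulfur cluster genes lie above it.

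The label HCC was checked against hepatocyte markers. Of 18 listed, 15 were under 1 FPKM, and ALB, the most abundant of them, had 189, 899 and 882 counts in control and 587, 635 and 138 in knockdown samples. HP and HPX had at most 16 counts in any sample. The summed FPKM of the list was 6.32, 12.1 and 13.8 in control and 5.11, 5.10 and 4.58 in knockdown samples, 3 of 15 tested genes were called lower (APOH, SERPINA1 and APOB) and all 15 fold changes were negative. TF, the transferrin gene, had 37, 361 and 375 counts in control and 234, 213 and 24 in knockdown samples, with overlap and wide spread within both groups.

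Of the epithelial markers, KRT18 (266 FPKM over all samples) and KRT8 (196 FPKM) were abundant and not called, and KRT19 (log2 fold change 0.83), EPCAM (0.75) and CDH1 (0.59) were under 1 FPKM and not called at an adjusted p below 0.05 (list median 0.59). KRT19 and CDH1 met the study's criteria. Among markers of other cell types, CD68 (0.64, the most abundant of the macrophage list) and CSF1R (0.49) rose, 2 of 3 tested, with a summed FPKM of the macrophage list of 14.7, 14.6 and 14.4 in control and 22.4, 23.5 and 22.7 in knockdown samples, while PTPRC had 8, 8 and 0 counts in control and none in knockdown samples and MARCO had none. Of 5 tested fibroblast genes, PDGFRB (0.68) and COL1A1 (0.20) rose, and COL3A1 (-2.04), LUM (-1.26) and DCN (-0.04) were not called (list median -0.04). Of 3 tested endothelial genes, CDH5 (-0.70) fell, and PECAM1 (0.15) and STAB2 (0.20) were not called (list median 0.15). The part of these marker changes in the values of the iron genes was not tested.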

How the data were processed

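RNA-seq of LM3 cells was analysed in 3 control and 3 ZNF706-knockdown samples. The authors mapped reads with HISAT2 and deposited raw counts per gene and FPKM values, which are divided by gene length and library size. The submitters' processing notes name cutadapt 1.9, FastQC and GRCh38. The counting program, its use of strand and its annotation release are not given in the sources used here.

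Counts were filtered (filterByExpr), scaled by TMM and tested with edgeR 4.0.16 in R 4.3.3 (glmQLFit and glmQLFTest, group only), with Benjamini-Hochberg adjustment over 18390 genes. SE was obtained from the fold change and the F statistic, and intervals are at 95%. The fit was tested on simulated counts. Replicates were separate libraries: chi-square per gene was 12.8 to 22.2 within groups. The floor of 3 counts covers counting error only.

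Alternatives were DESeq2 1.42.0, its size factors, library size alone, counts without a filter, a minimum mean count of 50, a replicate block, a GC offset (lowess of each library on GC content of the longest GENCODE release 29 transcript, centred on its median, TMM kept), both together, limma 3.58.1 on log2(FPKM + 0.1) and log2(FPKM + 1), ferritin summed with pseudogenes, and each sample left out. Sums with overlapping genes were added after seeing the data.

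The genes named are ZNF706, the 10 members, up to 4 called genes with the largest change per list, 7 preset sensing and haem genes, and the 3 genes most like the called member of largest change, which was also the called member of highest FPKM. The other list genes (BMP6, SMAD1, SMAD4, BMPR1A, BMPR2, ACVR2A, SLC39A1, SLC39A6 and SLC39A10), overlapping genes and the remaining markers were named after their values were seen. Some results are not reported here. The members and lists were chosen with earlier results of these data known.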

Additional observations from a re-analysis of the deposited data

How the results depend on the processing

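SLC39A14 (-0.34 to -0.26) and STEAP3 (0.22 to 0.34) kept their direction and their call in every alternative run. The 3 called members became 4 with the GC offset (CP, SLC39A14, STEAP3 and TFRC), 4 with CP and HPS3 summed (CP added, adjusted p = 0.00618 in edgeR), and 2 to 4 when a sample was left out. Over all tested genes, replicate numbers showed no pairing of the samples: deviations of same-numbered samples correlated at 0.04, -0.014 and 0.046. These correlations cannot exclude a shared replicate effect on single genes, and BEST1 was high in the third replicate of both groups. With a replicate block 4361 genes were called in place of 4192, and 4 members (FTL added, adjusted p = 0.0287 in edgeR). With the replicate block and GC offset together 5 members were called, FTL among them. Leaving out a sample, which leaves fewer samples in each fit, gave 2648 to 3424 called genes. Of the genes of the 8 lists outside the group, 18 to 29 were called in place of 32. The lowest values were without knockdown replicate 2, and why that sample gave them was not tested.

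Signs that turned were of small fold changes. With library size scaling TFRC was 0.044, SLC11A2 0.039, IREB2 0.043 and HMOX1 0.0043. With the GC offset TFRC was 0.114, NCOA4 0.0211, SLC11A2 0.0911, STEAP4 0.0431 and IREB2 0.140, and with the replicate block added 0.114, 0.0213, 0.0914, 0.0430 and 0.140. With limma TFRC was 0.0389 and 0.0387 at the smaller and larger pseudocount, SLC11A2 0.0336 and 0.0321, IREB2 0.0365 and 0.0352, and HMOX1 0.0048 and 0.0034. Over the samples left out TFRC went from -0.0236 to 0.0036 (0.0032 without knockdown replicate 3 and 0.0036 without control replicate 3), IREB2 from -0.0342 to 0.0198 (without knockdown replicate 3) and HMOX1 from -0.148 to 0.0771 (without control replicate 1, and 0.0047 without knockdown replicate 2). The cause was not tested. Of 34 called genes in the 8 lists, 16 lost their call without at least 1 single sample, among them BMP6, BMPR1A, ACVR1, SCARA5, STEAP4, TMEM14C, NFU1, CDC42BPA, SLC39A1, SLC39A6, SLC39A8, SLC39A10, SNX3, EXOC6 and TBC1D15, 11 with the GC offset and 9 with library size scaling. The median of all genes moved from 0.01 to 0.06 with library size scaling and to 0.07 with the GC offset. Depth limits what can be said of SLC40A1 and HAMP.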
